A study of Mus musculus with 6 samples.

Results

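The comparison described here sets the mouse uterus 12 and 15 h after a progesterone injection against the uterus 6 h after it, and it asks which parts of the early response had faded by then and which genes had joined it. It used 3 of the 6 arrays of the study, the arrays labelled 6, 12 and 15 h. All mice were wildtype females of the inbred strain 129/SvImJ, 10 to 16 weeks old and ovariectomized 14 days earlier, so that their own ovarian hormones were gone. The mice of the 6, 12, 15, 18 and 24 h groups had received 0.2 mg progesterone in 0.1 mL sesame oil under the skin, and the mice called 0 h here had received no injection. Each array held RNA of 8 whole uterine horns pooled from 4 mice. There was thus 1 array per time with no replicate, and no group given oil alone was analysed here. Every difference below rests on the same single 6 h array, and the number of arrays limits the precision of every value. In whole tissue, fewer cells of a type and less RNA per cell cannot be told apart. The labels name no hour of the day, so hours after injection and time of day cannot be told apart either.

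Progesterone acts through its nuclear receptor, Pgr, which binds DNA and switches target genes on or off within hours. In the uterus it restrains the growth effects of estrogen on the epithelium and prepares epithelium and stroma for an embryo. Part of this response is shared with glucocorticoids, whose receptor binds the same DNA sequence. Cells make cholesterol from acetyl-CoA through mevalonate, isoprenoids and squalene, and the genes of that pathway are switched on together by the transcription factor SREBP2 when membrane sterol is low. The circadian clock is a feedback loop in which the activators Bmal1 and Clock drive their own repressors, the Per and Cry genes, and output regulators such as Dbp and Nr1d2.

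Values are log2 expression levels of probe sets, the groups of short probes that each measure 1 transcript or part of it. Values under 6.59, the 40th percentile of the whole table and called the floor here, were set to it before differences were taken, while the levels printed are those deposited. A difference is the mean of the 12 and 15 h values minus the 6 h value. Where a member lies at the floor on 1 side, the fold is a lower bound and is given as "at least". Of 12422 probe sets, 7591 were analysed, being above the floor at 6 h or at both 12 and 15 h, and 6201 of them, 81.7%, had the same direction at 12 and at 15 h. The log2 differences from 6 h had an SD of 0.268 for the 12 h array and 0.326 for the 15 h array, against 0.175 for the difference between these later arrays. The median difference was 0.085, and it was 0.010 after the arrays' medians were set equal.

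Counted by size, 30 probe sets (0.395%) were 2-fold or more under their 6 h level at 12 and 15 h, and 27 (0.356%) were 2-fold or more above it. With the medians of the arrays set equal these counts were 38 and 19, with a higher floor at the 60th percentile 16 and 13, and without the 12 h array 49 and 54. At 1.5-fold the counts were 136 lower (1.79%) and 263 higher (3.46%). The limma test, which took its spread from the pairs of neighbouring times 12 and 15 h and 18 and 24 h, called 0 probe sets lower (0.0%) and 0 higher (0.0%) at an adjusted p under 0.05, with a lowest adjusted p of 0.063. At an unadjusted p under 0.05, limma counted 472 lower and 1174 higher. Over the 7098 probe sets above the floor at 6, 12 and 15 h, limma called 98 lower (1.38%) and 281 higher (3.96%), and adjusted p-values below are from this second fit. It called 0 in either direction without the 12 h array and 0 without the 15 h array. Without the 18 h array it called 318 lower and 873 higher, and without the 24 h array 318 and 875. These p-values measure the spread between neighbouring times, not between mice. The words lower and higher therefore describe levels on these arrays.

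**Figure D1:**
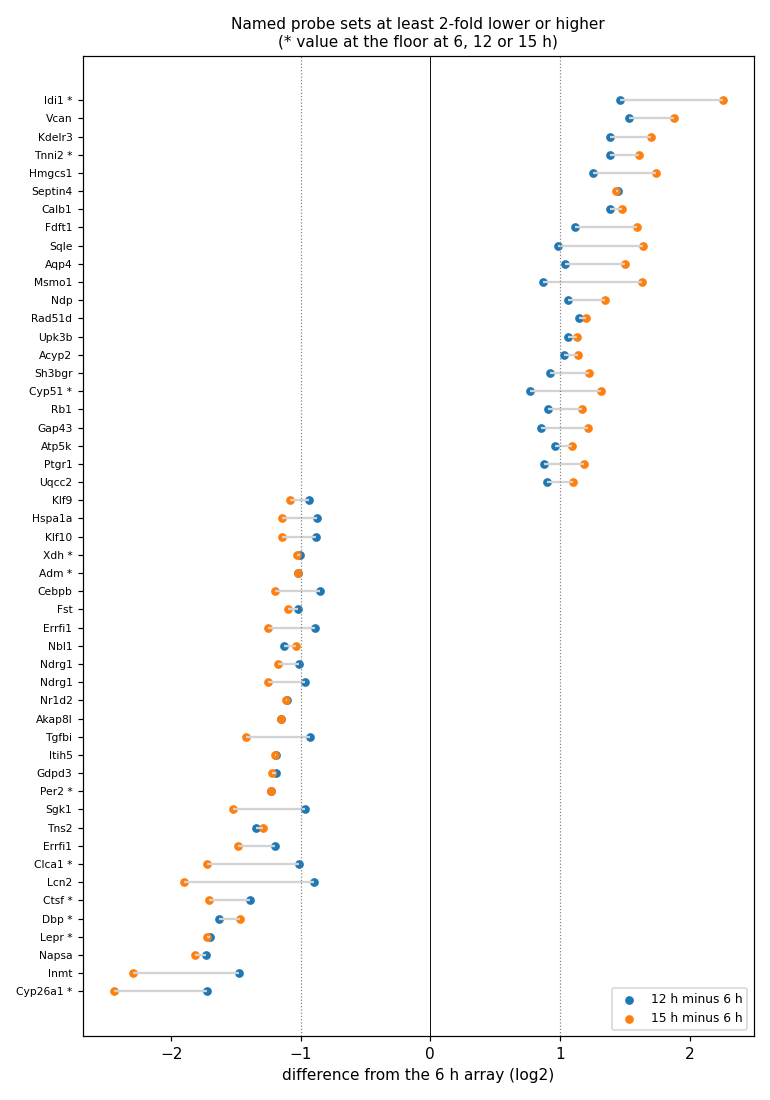
Log2 difference from the 6 h array at 12 h (blue) and 15 h (orange) for the 50 named probe sets at least 2-fold lower or higher on the mean of both times; dotted lines mark 2-fold, and an asterisk marks a value at the floor at 6, 12 or 15 h. Cyp26a1 stands lowest and Idi1 highest, and most points at 15 h lie farther from 0 than those at 12 h.

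The 30 lower probe sets named 26 genes, with 2 probe sets unnamed. With values under the floor set to it, 24 of the 30 were lower at 15 than at 12 h. The 27 higher probe sets named 22 genes, with 5 unnamed, and 25 of them were higher at 15 than at 12 h. Of the lower ones 21 were 2-fold lower at each time taken singly, and of the higher ones 16 were 2-fold higher at each. Between the 12 and 15 h arrays, 5 of all analysed probe sets differed 2-fold. Of all analysed, 42 were 2-fold from 6 h at 12 h and 103 at 15 h. The 15 h array thus lay farther from 6 h in general, and the counts of members farther at 15 h are to be read beside this. Nearest to the 2-fold limit lay Klf9 at -1.01 inside and the kallikrein gene Klk1b1 at -0.99 outside on the lower side. On the higher side Uqcc2 lay inside at 1.003 and the vitamin D receptor gene Vdr outside at 0.99.

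Upstream sequences are shown for Sgk1, a kinase gene known as a direct target of steroid receptors that stands for the lower genes, and for enzymes of the sterol pathway, which stand for the higher ones. The windows are the 250 bases before the gene start in RefSeq, build GRCm38.p6, printed 5' to 3' on the strand of the gene. In the Sgk1 window, at chr10:21993640-21993889 on the plus strand, capitals mark the hexamer TGTTCT, to which a single subunit of the progesterone or glucocorticoid receptor binds, read on both strands.
Sgk1: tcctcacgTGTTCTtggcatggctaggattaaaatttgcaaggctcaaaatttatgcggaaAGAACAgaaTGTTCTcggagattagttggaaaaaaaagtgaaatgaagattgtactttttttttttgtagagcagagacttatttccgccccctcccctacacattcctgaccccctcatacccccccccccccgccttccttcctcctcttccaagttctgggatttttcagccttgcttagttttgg
The hexamer stood 3 times in this window, and the copies at -189 to -184 and -180 to -175 from the start site faced each other with 3 bases between them. That inverted repeat was found in 3 of 32851 windows in the table, and Sgk1 was 1 of these; it was searched after the values were seen. The table holds 6 windows for Sgk1, and the 1 with the most copies is shown. The hexamer alone was in 16.1% of all windows, in 4 of 26 windows of the genes 2-fold lower and in 2 of 16 windows of those 2-fold higher. By gene it was in 2 of 19 lower genes (10.5%), Gdpd3 and Sgk1, and in 2 of 13 higher genes (15.4%), against 18.2% of all genes. The hexamer came from a motif list fixed with the tests. That list also held CCACG (endoplasmic reticulum stress), CACGTG (E-box) and TGACGTCA (cAMP response element). CCACG was in 11 of 19 lower genes (57.9%) and 5 of 13 higher genes (38.5%), against 31% of all genes. The E-box was in 2 lower genes (10.5%) and 0 higher ones, against 6.86%. The cAMP element was in 1 lower gene (5.26%) and 0 higher ones, against 1.77%. These shares were not tested.

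In the windows of 4 sterol enzymes, capitals mark the CCAAT box (CCAAT on either strand, a site of the factor NF-Y) and, in Hmgcs1, also the sterol regulatory element TCACNCCAC, to which SREBP2 binds. Both motifs were searched on both strands after the values were seen. Hmgcs1 lies at chr13:119690101-119690350 on the plus strand, Idi1 at chr13:8885356-8885605 on the plus strand, Msmo1 at chr8:64733579-64733828 on the minus strand and Cyp51 at chr5:4104698-4104947 on the minus strand.
Hmgcs1: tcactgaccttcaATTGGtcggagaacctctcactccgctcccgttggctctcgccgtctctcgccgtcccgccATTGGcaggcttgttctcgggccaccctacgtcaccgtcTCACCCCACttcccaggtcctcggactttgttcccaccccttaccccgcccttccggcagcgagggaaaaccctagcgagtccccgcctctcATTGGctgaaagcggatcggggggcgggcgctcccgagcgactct
Idi1: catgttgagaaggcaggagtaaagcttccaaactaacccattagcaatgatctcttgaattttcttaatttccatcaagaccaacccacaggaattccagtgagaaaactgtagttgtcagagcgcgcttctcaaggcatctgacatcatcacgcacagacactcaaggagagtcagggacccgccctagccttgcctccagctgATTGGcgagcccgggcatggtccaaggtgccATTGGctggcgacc
Msmo1: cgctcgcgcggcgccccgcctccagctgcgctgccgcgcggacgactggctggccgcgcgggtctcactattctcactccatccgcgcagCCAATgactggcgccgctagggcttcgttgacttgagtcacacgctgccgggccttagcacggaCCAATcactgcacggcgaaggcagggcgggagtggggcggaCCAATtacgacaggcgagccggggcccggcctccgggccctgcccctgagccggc
Cyp51: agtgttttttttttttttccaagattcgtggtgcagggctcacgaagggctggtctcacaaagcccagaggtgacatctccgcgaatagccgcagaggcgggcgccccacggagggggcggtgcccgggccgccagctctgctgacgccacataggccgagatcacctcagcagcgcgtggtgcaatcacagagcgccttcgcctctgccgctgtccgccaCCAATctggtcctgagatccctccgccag
The sterol regulatory element of Hmgcs1 lay at -137 to -129, between CCAAT boxes at -176 to -172 and -45 to -41. In this exact spelling the element was in 1.05% of all windows and, among the 9 analysed sterol genes that have a window, in Hmgcs1 alone. A CCAAT box was in all 9 of these windows, those of Cyp51, Ebp, Hmgcs1, Idi1, Msmo1, Mvd, Mvk, Nsdhl and Tm7sf2, against 33.8% of all windows. It was in 7 of 16 windows of the genes 2-fold higher and in 10 of 26 of those 2-fold lower. A match of letters is a description of the window and not a measured site.

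The steroid-induced early regulators, a list of genes known to respond within hours to progesterone or glucocorticoids, were in part lower at 12 and 15 h. Of 22 analysed genes 9 were at least 1.5-fold lower and 0 higher, with a median difference of -0.41, against 1.79% lower, 3.43% higher and a median of 0.09 among all 5825 analysed genes. limma called 8 of the 21 above the floor lower, against 1.45% lower and 4.05% higher of all 5510 genes above the floor. The same shares over all genes are to be read beside every list count below. The list was written with earlier results of these data known, so the count is a description.

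Sgk1, whose kinase regulates ion transport, had a level of 10.64, 9.68 and 9.12 at 6, 12 and 15 h. It had been 8.56 at 0 h and stood at 8.14 at 18 h and 8.69 at 24 h. Sgk1 was thus highest at 6 h, and both later arrays of the comparison lay between the 6 and 0 h levels, a difference of -1.25 ± 0.25 (SE; limma adjusted p 0.026). Errfi1, an inhibitor of the EGF receptor, read 8.88, 10.46, 9.25 and 8.97 at 0, 6, 12 and 15 h on 1 probe set. Its difference was -1.34 ± 0.22 (SE; limma adjusted p 0.014), and its other probe set gave -1.07. By 15 h Errfi1 was back near its 0 h level, and it stood at 8.68 at 18 h and 9.27 at 24 h.

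Zbtb16, a zinc finger repressor induced by progesterone and glucocorticoids, read 8.19, 10.28, 9.54 and 9.38 at 0, 6, 12 and 15 h. It was lower by a log2 difference of -0.82 ± 0.15 (SE; limma adjusted p 0.021) but kept a level above that of 0 h at both times. Fkbp5, a co-chaperone that dampens steroid receptors, read 9.83, 9.16 and 8.92 at 6, 12 and 15 h after 8.31 at 0 h. Its difference of -0.79 did not pass the test (limma adjusted p 0.054). Cebpb, a transcription factor needed for decidualization, was 2.03-fold lower (8.90, 8.05 and 7.70 at 6, 12 and 15 h; limma adjusted p 0.014), and its later levels lay under the 8.53 of 0 h. Klf9, a partner of the progesterone receptor in the uterus, differed by -1.01 on 1 probe set and by -0.71 on the other. Other members stood near their 6 h level. The metallothionein genes Mt1 and Mt2 differed by 0.03 and -0.13, and the glucocorticoid-induced Tsc22d3 by -0.05.

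Cyp26a1, which breaks down retinoic acid, gave the largest difference. It read 5.92, 9.04, 7.31 and 6.42 at 0, 6, 12 and 15 h, and then 5.42 and 5.39 at 18 and 24 h. The 15 h value was under the floor, so Cyp26a1 was at least 4.24-fold lower. It is 1 of 9 lower probe sets that had been at least 1.5-fold above 0 h at 6 h. The others measured Sgk1, Errfi1 (2 probe sets), Lcn2, Per2, Fst, Adm and Hspa1a. At 12 and 15 h 7 of these 9 were within 1.5-fold of the 0 h level, and Sgk1 and Fst were still above it. Among all analysed probe sets, 353 (4.65%) were 1.5-fold above 0 h at 6 h. The 6 h array stands in both differences, so these positions describe levels and test nothing.

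Fst, follistatin, which binds activins and BMPs, read 5.80, 8.25, 7.23 and 7.14 at 0, 6, 12 and 15 h. Its difference of -1.06 did not pass the test (limma adjusted p 0.071), and at 24 h its level was 8.07, near that of 6 h. Lcn2, an iron-binding secreted protein of epithelium and granulocytes, read 8.77, 7.87 and 6.87 at 6, 12 and 15 h after 7.63 at 0 h. It was 2.64-fold lower (limma adjusted p 0.034), while its other probe set gave -0.55 with both later values at the floor. Adm, the vasodilator peptide adrenomedullin, was at least 2.03-fold lower. In the BMP and TGF-beta list 4 of 32 analysed genes were 1.5-fold lower and 0 higher, against 1.79% and 3.43% of all genes, and limma called 1 of the 28 above the floor. The secreted BMP antagonist Nbl1 was lower by -1.08 ± 0.13 (SE; limma adjusted p 0.0074), and with Fst and the BMP-responsive genes Id1 (-0.72, limma adjusted p 0.061) and Id3 (-0.66, limma adjusted p 0.054), which did not pass the test, it made up the 4.

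**Figure D2:**
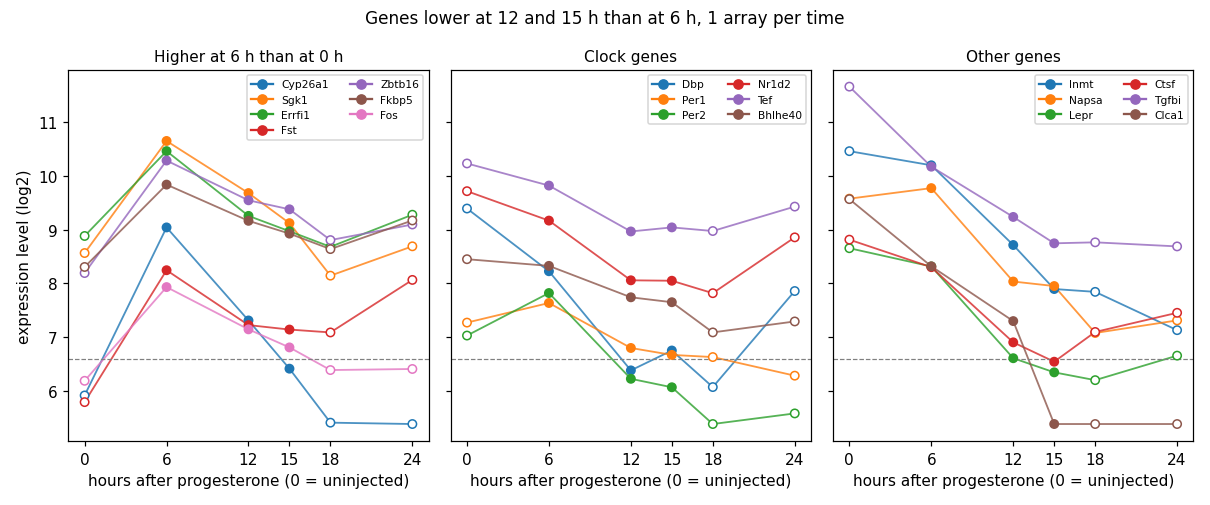
Log2 level at 0, 6, 12, 15, 18 and 24 h of genes with lower levels at 12 and 15 h; filled points are the arrays of the comparison, open points the others, and the dashed line is the floor at 6.59. Left, genes that were higher at 6 h than at 0 h; centre, clock genes, of which Dbp, Nr1d2 and Tef are higher again at 24 h than at 18 h; right, other genes.

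Immediate-early genes, which code for short-lived regulators switched on within minutes of a stimulus, were lower in part. Of 29 analysed, 7 were 1.5-fold lower and 0 higher, against 1.79% and 3.43% of all genes. The median was -0.34, and limma called 6 of 27 above the floor lower. Fosb (0.26), Egr2 (0.11) and Btg2 (-0.01) were among those that were not 1.5-fold lower. Fos, a subunit of the AP-1 factor, read 6.19 at 0 h and 7.93, 7.15 and 6.81 at 6, 12 and 15 h (difference -0.95, limma adjusted p 0.016). Dusp1, a phosphatase that switches off MAP kinases, read 9.53, 8.69 and 8.42, with 8.99 at 0 h (difference -0.98, limma adjusted p 0.012). Klf4, an epithelial transcription factor, read 9.56, 8.72 and 8.45, with 9.01 at 0 h (difference -0.98, limma adjusted p 0.019). In all 3 the 12 h level lay between the 6 and 15 h levels. Among EGF pathway genes the ligand Hbegf (-0.62) and the inhibitor Spred2 (-0.60) were lower along with Errfi1, 3 of 9 analysed genes. Wnt11, a secreted WNT ligand that stood at 9.05 at 6 h and 7.75 at 0 h, was 1.67-fold lower at 8.40 and 8.21 (limma adjusted p 0.024).

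Of 17 analysed clock genes and outputs, 6 were 1.5-fold lower and 0 higher, against 1.79% and 3.43% of all genes, with a median of -0.25. The 6 were Dbp, Per2, Nr1d2, Per1, Tef and Bhlhe40. Dbp, an output regulator of the clock, read 9.39, 8.23, 6.39 and 6.76 at 0, 6, 12 and 15 h, at least 2.93-fold lower. It was 6.08 at 18 h and 7.86 at 24 h. Nr1d2, a repressor of Bmal1, read 9.17, 8.06 and 8.05 at 6, 12 and 15 h (difference -1.11, limma adjusted p 0.071) and 8.85 at 24 h. Tef, a relative of Dbp, read 9.82, 8.96 and 9.04 (limma adjusted p 0.033) and 9.43 at 24 h. These 3 genes were low from 12 to 18 h and higher at 24 h.

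The repressors Per1 and Per2 followed another course. Per2 read 7.03 at 0 h, 7.82 at 6 h, and 6.23 and 6.07 at 12 and 15 h, at least 2.34-fold lower, and it was 5.39 and 5.59 at 18 and 24 h. Per1 read 7.27 at 0 h and 7.64, 6.80 and 6.67 at 6, 12 and 15 h (difference -0.90, limma adjusted p 0.012), with 6.29 at 24 h. Both were thus lower at 24 h than at 0 h. The activator Bmal1, listed under its older symbol Arntl, read 7.51, 7.87 and 7.93. Its difference of 0.39 was within 1.5-fold and did not pass the test (limma adjusted p 0.14). Cry1 (-0.42), Clock (-0.23), Nr1d1 (-0.16) and Per3 (0.15) also stayed within 1.5-fold. Which of these levels follow the hour of the day cannot be told apart from hours after injection.

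A larger number of the lower probe sets, 16 of 30, had been within 1.5-fold of 0 h at 6 h, against 6793 (89.5%) of all analysed. At 12 and 15 h, 15 of these 16 were 1.5-fold below 0 h, which follows in large part from the 2-fold rule. Inmt, a methyltransferase of tryptamine and other small amines, read 10.45, 10.19, 8.71 and 7.90 at 0, 6, 12 and 15 h. It was lower by -1.89 ± 0.33 (SE; limma adjusted p 0.017) and reached 7.13 at 24 h. Napsa, an aspartic protease of lysosomes, read 9.57 and 9.77 at 0 and 6 h and 8.04 and 7.95 at 12 and 15 h. Its difference was -1.78 ± 0.14 (SE; limma adjusted p 0.0010). Inmt was lower at 15 than at 12 h, whereas the 2 later values of Napsa were close.

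Lepr, the leptin receptor, read 8.65 and 8.32 at 0 and 6 h and 6.61 and 6.35 at 12 and 15 h, at least 3.27-fold lower. Ctsf, the lysosomal protease cathepsin F, was at least 2.93-fold lower, with 8.30, 6.91 and 6.55 at 6, 12 and 15 h. Tns2, a focal adhesion protein, read 8.50, 7.15 and 7.21 (difference -1.32, limma adjusted p 0.0027). Itih5, which binds hyaluronan, read 10.08, 8.88 and 8.88 but was 9.75 at 24 h. Ndrg1, a stress- and hypoxia-responsive gene, gave -1.11 and -1.10 on its 2 probe sets. Xdh, the enzyme that makes uric acid, was at least 2.03-fold lower. Akap8l, a nuclear scaffold protein, was 2.22-fold lower.

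A further 5 lower probe sets were already 1.5-fold under 0 h at 6 h, and all 5 stayed under it. They measured Tgfbi, Clca1, Gdpd3, Dbp and 1 unnamed transcript. Tgfbi, an extracellular matrix protein induced by TGF-beta, read 11.65, 10.17, 9.23 and 8.74 at 0, 6, 12 and 15 h (difference -1.18, limma adjusted p 0.014). Clca1, a member of the CLCA family, read 9.56, 8.32 and 7.30 at 0, 6 and 12 h and was at the lowest value of the table, 5.39, at 15, 18 and 24 h. Gdpd3, a lysophospholipase, read 11.37 at 0 h, 10.76 at 6 h, and 9.57 and 9.54 at 12 and 15 h. The estrogen-induced secreted protein Ltf, or lactoferrin, was also lower, with 10.09, 9.09, 8.30 and 8.48 at 0, 6, 12 and 15 h (difference -0.69, limma adjusted p 0.034). Igfbp3, which binds insulin-like growth factors, read 10.75 at 0 h, 9.66 at 6 h, and 9.02 and 8.78 at 12 and 15 h (limma adjusted p 0.020).

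The clearest group among the higher genes was the sterol pathway. Of 11 analysed genes, 7 were at least 1.5-fold higher and 0 lower, 6 of them at least 2-fold, and the median difference was 1.04 against 0.09 over all genes. limma called 4 of the 9 above the floor at all 3 times. The list had 17 genes on the array, and those that missed the filter are not counted. Idi1 and Cyp51 were at the floor at 6 h and were analysed because of their 12 and 15 h levels. The median of 1.04 was the value of Cyp51 and thus a lower bound. Among the 9 genes above the floor, the middle value was that of Nsdhl, 0.77. Over the alternative settings the list median ran from 0.77 to 1.32. Hmgcs1, which makes HMG-CoA, read 7.50, 7.14, 8.40 and 8.88 at 0, 6, 12 and 15 h. The difference was 1.495 ± 0.25 (SE; limma adjusted p 0.014). Idi1, which isomerizes the isoprenoid building block, read 6.61, 6.26, 8.06 and 8.85 at the same times and was at least 3.64-fold higher. The windows of both genes are those printed above.

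Fdft1, squalene synthase, read 7.72, 6.72, 7.83 and 8.31 at 0, 6, 12 and 15 h (difference 1.35, limma adjusted p 0.011). Sqle, which oxidizes squalene, read 7.46, 7.92, 8.91 and 9.56 (difference 1.31, limma adjusted p 0.026). Msmo1, a methylsterol oxidase, read 7.12, 7.50, 8.37 and 9.14 (difference 1.25, limma adjusted p 0.039). Cyp51, the lanosterol demethylase, read 5.98, 6.27, 7.36 and 7.91 and was at least 2.06-fold higher. Nsdhl, a sterol dehydrogenase, differed by 0.77 (limma adjusted p 0.062). All 7 genes were higher at 15 than at 12 h, and all 7 were lower at 18 than at 15 h.

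Msmo1 lost its call with quantile normalization (limma adjusted p 0.069). The early mevalonate enzymes Mvk (0.31) and Mvd (0.17), the isomerase Ebp (0.28) and the reductase Tm7sf2 (-0.18) were within 1.5-fold. Fatty acid synthesis genes gave no such pattern, with 1 of 16 higher, the elongase Elovl6 (at least 1.71-fold), and 2 lower.

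**Figure D3:**
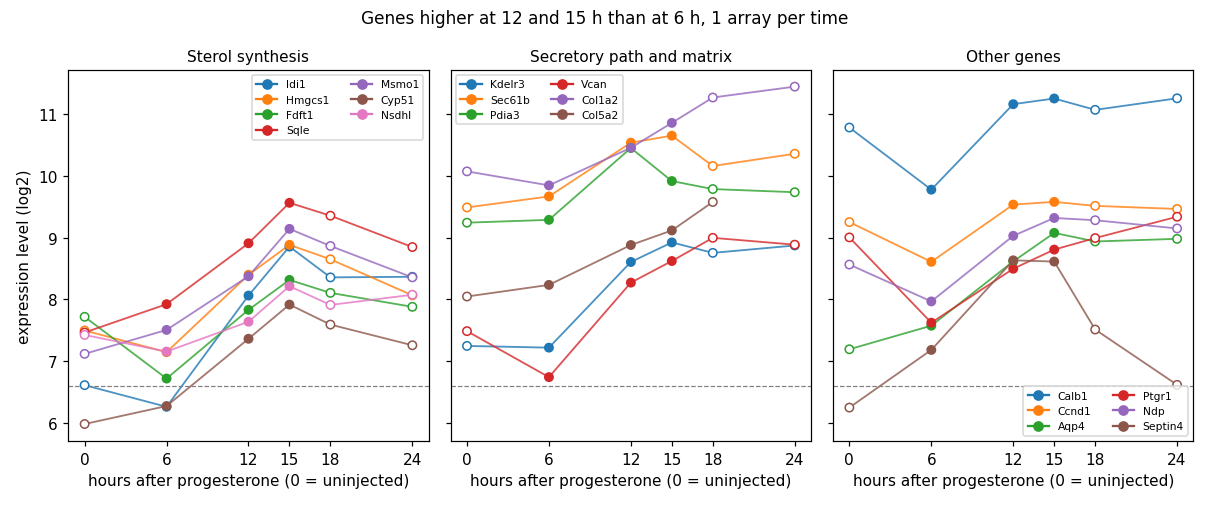
Log2 level at 0, 6, 12, 15, 18 and 24 h of genes with higher levels at 12 and 15 h; filled points are the arrays of the comparison, open points the others, and the dashed line is the floor at 6.59. The sterol genes (left) are highest at 15 h, Col1a2 (centre) is highest at 24 h, and Calb1 (right) is lowest at 6 h; Col5a2 has no value at 24 h.

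Some genes of the endoplasmic reticulum were higher as well. Kdelr3, a receptor that returns chaperones from the Golgi to the endoplasmic reticulum, read 7.25, 7.22, 8.60 and 8.92 at 0, 6, 12 and 15 h. The difference was 1.55 ± 0.15 (SE; limma adjusted p 0.0027), and the level was 8.75 and 8.87 at 18 and 24 h. Of 28 analysed genes of folding and entry in the endoplasmic reticulum, 7 were 1.5-fold higher and 0 lower, against 3.43% and 1.79% of all genes. The median was 0.26, and limma called 8 of 27 higher. Others had lower levels, such as the stress regulator Ddit3 (-0.45) and the co-chaperone Dnajc3 (-0.36). Sec61b, a subunit of the channel for nascent proteins, read 9.67, 10.54 and 10.65 at 6, 12 and 15 h (difference 0.93, limma adjusted p 0.011). The disulfide isomerase gene Pdia3 read 9.29, 10.45 and 9.92 (difference 0.90, limma adjusted p 0.031), a call lost with quantile normalization (limma adjusted p 0.068). Pdia6, of the same family, read 9.62, 10.59 and 10.10. Sec61b was highest at 15 h, and both isomerase genes were highest at 12 h.

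Matrix genes formed another group. Of 22 analysed collagen and collagen maturation genes, 11 were 1.5-fold higher and 0 lower by 1.5-fold, against 3.43% and 1.79% of all genes. The median was 0.49, and limma called 10 higher. Col1a2, a chain of type I collagen, read 9.85, 10.45 and 10.86 at 6, 12 and 15 h, after 10.07 at 0 h, and 11.27 and 11.44 at 18 and 24 h. The difference was 0.81 ± 0.16 (SE; limma adjusted p 0.027). Col1a1, the other chain, read 10.57, 11.31 and 11.41 (difference 0.79, limma adjusted p 0.012). Col3a1 (0.60), Col5a2 (0.76), Col6a3 (0.76) and the collagen chaperone Serpinh1 (0.59) were higher too. Lox, the enzyme that crosslinks collagen, went the other way at -0.54 without passing the test (limma adjusted p 0.071). Several of these collagen genes are also stroma markers, of which 13 of 16 were above the floor at each of the 3 times. Their summed linear level was 19928, 21259 and 21940 at 6, 12 and 15 h, a sum that includes Col1a1, Col1a2 and Col3a1. Over the 13 analysed stroma markers the median difference was 0.04, against 0.09 over all genes. Of these markers 4 were 1.5-fold higher and 0 lower, while Dcn (-0.29), Hoxa11 (-0.47) and Hoxa10 (-0.20) had lower levels. The part of cell makeup in the collagen result was not tested.

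Vcan, the large proteoglycan versican, had the highest difference of a named gene measured above the floor throughout. It read 7.48, 6.74, 8.27, 8.62 and 8.996 at 0, 6, 12, 15 and 18 h, a difference of 1.71 ± 0.16 (SE; limma adjusted p 0.0023). The small proteoglycans Fmod (0.83, limma adjusted p 0.032) and Lum (0.73, limma adjusted p 0.049) were higher with it. Neither was called with quantile normalization (limma adjusted p 0.058 for Fmod and 0.052 for Lum), and Lum was not called without the trend in eBayes (limma adjusted p 0.058). In the list of matricellular proteins and proteoglycans 4 genes were 1.5-fold higher and 2 lower, Tgfbi and the elastin gene Eln (-0.67).

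Of the 27 higher probe sets, 9 had been at least 1.5-fold under 0 h at 6 h, against 439 (5.78%) of all analysed. At 12 and 15 h, 7 of the 9 were within 1.5-fold of the 0 h level. The 6 h array that chose these members stands in both differences here too, so these positions describe levels and test nothing. Calb1, the calcium-binding protein calbindin-D28k of uterine epithelium, read 10.78, 9.78, 11.16 and 11.25 at 0, 6, 12 and 15 h. It was lowest at 6 h, and the difference was 1.43 ± 0.12 (SE; limma adjusted p 0.0013). Ptgr1, which inactivates prostaglandins and leukotriene B4, read 9.003, 7.62, 8.50 and 8.81 (difference 1.03, limma adjusted p 0.017). Ndp, a secreted ligand of the frizzled receptor Fzd4, read 8.56, 7.97, 9.03 and 9.32 (difference 1.21, limma adjusted p 0.0091). Rad51d, a DNA repair gene, and Upk3b, a uroplakin and mesothelium marker, were 2.26-fold and 2.14-fold higher. Of the other mesothelium markers measured, Msln and Bnc1 were at the floor at 6, 12 and 15 h, and the list's summed linear level was 2276, 2312 and 2539.

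A further 16 of the 27 had been within 1.5-fold of 0 h at 6 h, against 6793 (89.5%) of all analysed. All 16 were 1.5-fold above 0 h at 12 and 15 h, which follows in large part from the 2-fold rule. Aqp4, a water channel, read 7.19, 7.57, 8.61 and 9.08 at 0, 6, 12 and 15 h (difference 1.27, limma adjusted p 0.011), and 8.98 at 24 h. Gap43, a growth cone protein of nerve fibres, read 6.999, 7.85 and 8.22 at 6, 12 and 15 h. The mitochondrial genes Atp5k and Uqcc2 were 2.04-fold and 2.005-fold higher. For the retinoblastoma gene Rb1 the 2 probe sets disagreed, at 1.04 and -0.53. The remaining 2 were already 1.5-fold above 0 h at 6 h. Septin4, a cytoskeletal GTPase gene, read 6.25, 7.18, 8.63 and 8.61 at 0, 6, 12 and 15 h and then 7.51 and 6.62 at 18 and 24 h, so it was highest on the arrays at 12 and 15 h. An unnamed transcript, probe set 92533_at, gave the highest difference of all, 2.06, with levels of 5.61, 7.36, 9.24 and 9.60 at 0, 6, 12 and 15 h.

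Tnni2, fast skeletal muscle troponin I, read 5.64 and 5.89 at 0 and 6 h and 7.98 and 8.21 at 12 and 15 h, at least 2.83-fold higher. Of the skeletal muscle markers on the array, Myh1, Myh2, Tnnt3 and Mb were at the floor at 6, 12 and 15 h. The summed linear level of that list of 14 was 4417, 4981 and 5953, with Acta1 at 11.04, 11.20 and 11.68, and Tnnc2 differed by -0.01. The part of muscle tissue in the Tnni2 result was not tested. Smooth muscle markers summed to 23077, 28239 and 24918, and the calponin gene Cnn1 was 0.66 higher (limma adjusted p 0.022).

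Growth and energy genes differed by smaller steps. In the list of G1/S and DNA replication genes 3 of 30 were 1.5-fold higher and 0 lower, and the median was 0.29. Ccnd1, cyclin D1, which starts the passage through G1, read 9.25 at 0 h, 8.61 at 6 h, and 9.53 and 9.58 at 12 and 15 h (difference 0.95, limma adjusted p 0.011). The helicase subunit gene Mcm3 (0.70, limma adjusted p 0.018) and the primase gene Prim1 (0.61, limma adjusted p 0.038) were the other 2. Prim1 lost its call with quantile normalization (limma adjusted p 0.057). Mitosis genes showed 0 of 14 higher or lower. Oxidative phosphorylation and TCA cycle genes had a median of 0.35 with 5 of 43 higher, and proteasome subunits a median of 0.31 with 2 of 29 higher, against 3.43% of all genes. In these last groups the sign of the median held with the array medians set equal and with quantile normalization.

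**Figure D4:**
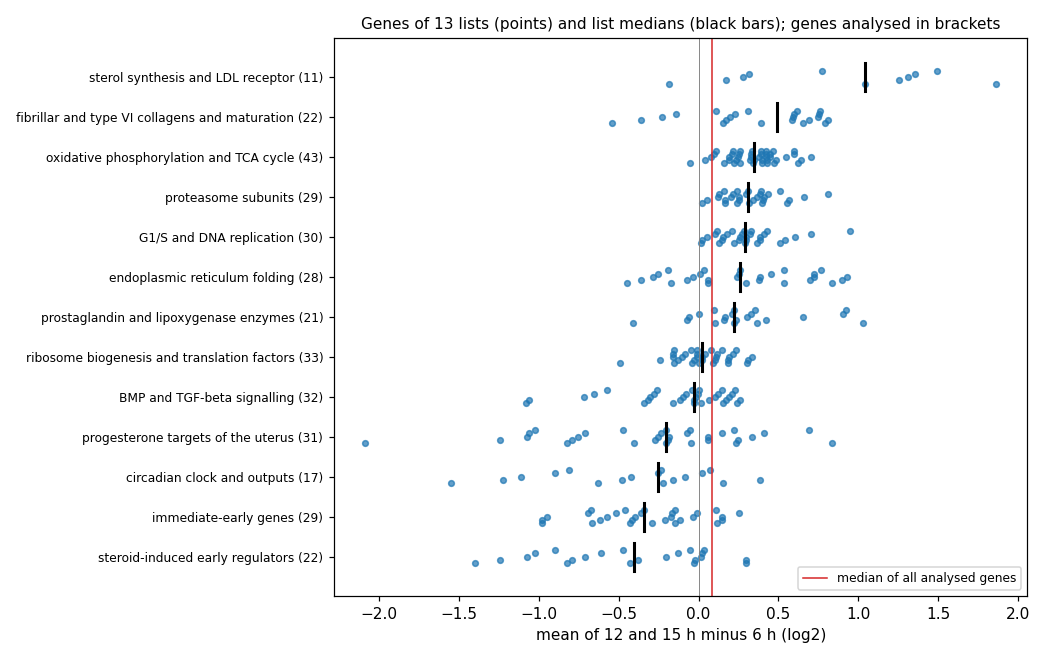
Difference between the mean of 12 and 15 h and 6 h (log2) for every analysed gene of 13 lists, 1 point per gene; black bars are list medians, the red line is the median of all analysed genes at 0.09, and the number of genes stands in brackets. The sterol list lies farthest to the right with a median of 1.04, and the steroid-induced early regulators lie farthest to the left with -0.41.

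Against 3.43% higher and 1.79% lower among all genes, prostaglandin genes showed 4 of 21 higher and 0 lower. Besides Ptgr1 these were the lipoxygenase gene Alox12e (0.92, limma adjusted p 0.019), the prostaglandin dehydrogenase gene Hpgd (0.90, limma adjusted p 0.011) and the secreted phospholipase gene Pla2g10 (0.66, limma adjusted p 0.019). Pla2g10 had been high already, with 7.32 at 0 h, 9.76 at 6 h, and 10.41 and 10.42 at 12 and 15 h. Hpgd read 8.44, 7.55, 8.45 and 8.46 at these times. In the hedgehog pathway the receptor and target gene Ptch1 read 10.54, 10.12, 10.70 and 10.93 at 0, 6, 12 and 15 h (difference 0.69, limma adjusted p 0.046), a call lost with quantile normalization and without the trend in eBayes (limma adjusted p 0.10 and 0.058). The ligand Ihh, a progesterone target of the epithelium, read 8.22, 9.64, 9.38 and 9.10, a difference of -0.40 that did not pass the test (limma adjusted p 0.15).

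Several known progesterone targets stood at like levels on the 3 arrays. Lrp2, the endocytic receptor megalin, read 6.90 at 0 h and 9.95, 10.21 and 9.98 at 6, 12 and 15 h, a difference of 0.15 ± 0.15 (SE; limma adjusted p 0.59). Hdc, which makes histamine, read 9.77 at 0 h and 11.54, 11.54 and 11.44 after it, a difference of -0.05 ± 0.12 (SE; limma adjusted p 0.84). Il13ra2, a decoy receptor of interleukin 13, read 5.39 at 0 h and 7.62, 7.53 and 7.35. All 3 were above their 0 h level at each time. Acod1, an enzyme of itaconate synthesis, read 6.46, 7.96, 8.86 and 8.73 (difference 0.83, limma adjusted p 0.054). Among 31 analysed progesterone targets 9 were 1.5-fold lower (29.0%) and 2 higher (6.5%), against 1.79% and 3.43% of all genes. Sgk1, Errfi1, Zbtb16, Fkbp5, Cebpb and Klf9 are among these 9 and were already counted among the early regulators, so the 2 lists are not separate results. The receptor gene Pgr itself differed by -0.11 and the estrogen receptor gene Esr1 by 0.00, neither passing the test (limma adjusted p 0.73 and 0.99).

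The levels at 18 and 24 h, which chose no member, are given beside these. Of the 30 lower probe sets, 29 were 2-fold under their 6 h level at 18 h and 21 at 24 h, where 4 were within 1.5-fold of it. Of the 27 higher ones, 16 were 2-fold above 6 h at 18 h, and 15 of the 26 with a value were so at 24 h. All these differences share the 6 h array, from which the members were chosen to differ, so the counts describe levels and test nothing. The same shares over all analysed probe sets were not counted.

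Markers of other cell types were looked at on the same arrays. Epithelial markers summed to 11115, 10873 and 10508 at 6, 12 and 15 h, with 18, 19 and 16 of 20 above the floor. Endothelial markers summed to 4334, 4248 and 4440, and macrophage markers to 8921, 8183 and 8971. Adipocyte markers summed to 3411, 3505 and 2086, with Fabp4 and Pparg at the floor throughout. Adipoq, the fat cell hormone adiponectin, read 8.38, 8.45 and 6.89, and Car3 read 10.24, 10.28 and 8.71, so the 15 h array stood apart from the other 2. Their part in the lower levels of Scd1 (-0.62) and Lpl (-0.59), genes of fat storage that were 9.61 and 7.35 at 15 h, was not tested. Control probe sets for Gapdh on the array differed by 0.43 to 0.50, and the Gapdh control with the name ending st by 0.27. Those for pyruvate carboxylase differed by 0.16 to 0.76 and that for the transferrin receptor by 0.61. Those for beta-actin differed by -0.03 to 0.11 and that for 18S RNA by -0.27. The part of these controls in the results was not tested.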

How the data were processed

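RNA of pooled uterine horns was hybridized to 1 Affymetrix mouse array per time, per the labels' protocols. The deposited values are log2 expression levels, 1 per probe set, since 99.8% of them had 4 decimals or fewer after 2 was raised to their power; neither the labels nor the file header names the software or the normalization. A shared lowest value of 5.39 held 21.1% to 22.5% of each array. The tool versions were Python 3.11.15, R 4.3.3 and limma 3.58.1.

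Of 12487 probe sets, 65 controls were left out. Symbols came from a table of GEO's platform annotation: 10833 probe sets had 1 symbol, 396 several and 1193 none, and those with several were not named. Values under the 40th percentile were raised to it, at 6.59 log2. Probe sets had to be above this floor at 6 h or at both 12 and 15 h. limma (lmFit, then eBayes with a trend on intensity) was fitted to the 5 progesterone arrays in 3 levels (6 h; 12 and 15 h; 18 and 24 h) with 2 residual degrees of freedom, and Benjamini-Hochberg adjustment ran over all probe sets fitted; the script was tested on simulated data. For 33 probe sets that lacked a value at 18 or 24 h, 1 residual degree of freedom was left. Their own spread came from 12 and 15 h alone, as for Alox12e and Col5a2. The single 6 h array is assumed to vary like the others. The estimated prior degrees of freedom were 2.02 for all analysed probe sets and 7.57 for those above the floor at 6, 12 and 15 h; the text quotes adjusted p-values of the second fit, which was listed as an alternative with the tests.

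Named genes were the 12 lowest and 12 highest differences above the floor, the 5 largest at the floor on each side, the 4 largest of each gene list past 1.5-fold, and a fixed set of progesterone targets; other 2-fold members and list genes were named after their values were seen. A gene with several probe sets stood in its list by the one with the highest mean. Members and lists were chosen with earlier results of these data known. Alternatives changed the floor, the filter, the scaling, the spread and the arrays used. Upstream windows came from RefSeq (32851 windows of GRCm38.p6), and 19 of 26 lower and 13 of 22 higher genes had one.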

Additional observations from a re-analysis of the deposited data

How the results depend on the processing

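With 1 array per time, no spread between mice can be measured, a 2-fold count describes these arrays alone, and levels near the floor give bounds only. No paired analysis was possible because each group has 1 array. The limma counts called lower and higher were 0 and 0 over all analysed probe sets, and 24 and 2 with a higher floor (60th percentile), 134 and 333 with no floor, 16 and 0 with medians set equal, 16 and 1 with quantile normalization, 98 and 281 above the floor at 6, 12 and 15 h, and 92 and 4 with no filter on expression. They were 0 and 0 with a lower floor (20th percentile), with 3 arrays alone, with eBayes without trend, and without any of the 12, 15, 18 and 24 h arrays. The 2-fold counts, 30 lower and 27 higher, were 16 and 13 with the higher floor, and at other thresholds 136 and 263 (1.5-fold) or 4 and 3 (3-fold). Leaving out the 15 or the 12 h array gave 21 to 49 lower and 24 to 54 higher. Under the other scalings, floors and filters they lay within 1.5 times of the main counts.

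For the 7098 probe sets above the floor at 6, 12 and 15 h, alternatives chosen after seeing the data gave 236 lower and 261 higher with medians set equal, 177 and 179 with quantile normalization, 318 and 873 with 3 arrays alone, and 91 and 248 with eBayes without trend. Leaving out 1 array gave 0 to 318 lower and 0 to 875 higher, with 0 called in both directions without the 12 or the 15 h array. Of the 379 calls, 339 were shared with medians set equal, 273 with quantile normalization and 379 with 3 arrays alone, and 0 changed direction in any of these fits. With 3 arrays alone, and without the 18 or the 24 h array, the estimated prior degrees of freedom were infinite. The fit on 3 arrays uses the same differences, so their direction could not change, and its sharing of all 379 calls adds no support. Across the alternatives of the named genes, 1240 values kept their side of the threshold and 200 passed it where the fit of all analysed probe sets did not. Since that fit called 0 probe sets, the 1240 values stayed uncalled. They do not show that the calls quoted in the text held. Of the list medians, 411 values moved by less than the spread between 12 and 15 h and 19 by more. The cause of these shifts was not tested.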
